A study of Hordeum vulgare with 12 samples.

Results

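The genes described here are 197 barley genes whose transcript level fell to 50% or less of the mock level after zeocin treatment in both genotypes of the study, the TILLING mutant *hvatr.g* and the WT cultivar Sebastian. They were chosen from the 83990 rows of the count table by their own values. Each count was divided by the total of its library and multiplied by 1e6 (CPM, the share of a library scaled to that total), and group means were taken over 3 libraries. A row was kept where the mock mean was at least 5 CPM in both genotypes, which left 14702 rows, where zeocin over mock was at most 0.5 in both, and where no zeocin-treated library reached the level of any mock-treated library of its genotype. The ratio was at most 0.5 in 407 rows in *hvatr.g*, in 236 rows in WT and in 206 rows in both. Of these 206, 3 rows had overlapping libraries and were left out. A list of 8 further genes was set aside, of which 6 met every criterion, so 203 rows became 197. Each of the 197 is a different gene.

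The 4 groups were *hvatr.g* plants in 500 µg/ml zeocin, *hvatr.g* plants in 0 µg/ml (mock), WT plants in 500 µg/ml zeocin and WT plants in 0 µg/ml, each with 3 libraries. Embryos were grown for 7 days, the seedlings were kept in liquid medium for 6 h, and poly(A) RNA of the dissected root apices was sequenced. WT was cv. Sebastian, and *hvatr.g* carries a TILLING allele of *ATR* (HORVU.MOREX.r3.7HG0748510). A single mutant line was used, so an effect of *ATR* and one of any other mutation of that line cannot be told apart. The study calls the 3 libraries of a group biological replicates.

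Zeocin is a bleomycin-type antibiotic that breaks DNA, and ATR is a protein kinase that signals from single-stranded DNA and from stalled replication forks. A root apex holds the meristem, where cells pass again and again through the cell cycle. In S phase the DNA is copied, and core histones are made in bulk to package the copy. In G2 and M phase other transcripts peak, those of mitotic cyclins, of kinases that bind them, and of kinesins and other microtubule proteins that build the spindle and the phragmoplast, the structure that lays down the new cell wall in plants. Both sets are low in cells that have left the cell cycle. Cells that endoreduplicate copy their DNA without dividing. In bulk RNA of an apex, fewer dividing cells, more endoreduplicating cells and less of these transcripts in each dividing cell cannot be told apart.

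Total counts per library ran from 36100439 to 74699245, with group medians of 38257495 in zeocin-treated *hvatr.g*, 54801716 in mock-treated *hvatr.g*, 36789931 in zeocin-treated WT and 40420292 in mock-treated WT. Members had at least 160 counts in every mock-treated library, and the lowest count in a zeocin-treated library was 4. *ATR* itself was at 15.06 to 18.4 CPM in zeocin-treated *hvatr.g*, 13.2 to 20.7 CPM in mock-treated *hvatr.g*, 9.35 to 13.7 CPM in zeocin-treated WT and 9.13 to 15.2 CPM in mock-treated WT. The level of the transcript does not show whether the allele is present. In the list of 15 rows described as products of differentiating root cells (2 of them members), 13 had at least 1 CPM. The summed level of the list was 147 to 236 CPM in zeocin-treated *hvatr.g* and 186 to 204 CPM in mock-treated *hvatr.g*, against 521 to 552 CPM in zeocin-treated WT and 497 to 736 CPM in mock-treated WT. The list thus separated the genotypes and not the treatments. Its rows have a description only through the supplement of the study, which lists genes called between the genotypes on these same libraries. The separation is therefore no independent evidence. The part of the list in the differences between the genotypes was not tested. All 5 rows described as leaf or shoot genes were low, and their sum did not pass 2.28 CPM in any library.

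The ratio in WT was the one closer to the bound of 0.5 in all but 1 member. In 196 of the 197 members the ratio was lower in *hvatr.g* than in WT. This held for 51.9% of all 14702 rows at the same mock level. A further 201 rows had a ratio of at most 0.5 in *hvatr.g* alone and 30 in WT alone. Just inside the bound were a histone H3 gene (7HG0730840), a B3 domain gene (7HG0665250) and a DNA helicase gene (5HG0443530), whose ratios in WT were 0.49995, 0.499 and 0.498. Just outside it were a histone H3 gene (6HG0568900) at 0.501, a histone H4 gene (2HG0191380) at 0.501 and an amidotransferase subunit gene (6HG0567330) at 0.503 in WT. All identifiers given without a prefix begin with HORVU.MOREX.r3. Each member has a description in the supplement of the study, in a list of genes that the study chose on these same libraries. By these descriptions 55 members were core histones, 23 belonged to kinesins, spindle and cytokinesis, 13 to DNA replication and nucleotide supply, 12 to receptors, kinases and signalling, 9 to cell wall and extracellular enzymes, 8 to cyclins and cell cycle control, 7 to transcription factors, 3 to transporters, 3 to histone methylation and 2 to DNA repair. The other 62 had descriptions of many kinds.

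After zeocin treatment the median member was left with 18.6% of its mock level in *hvatr.g* (range 3.98% to 49.3%) and with 38% in WT (range 17.5% to 49.995%). The median member was thus 5.38-fold lower after zeocin in *hvatr.g* and 2.63-fold lower in WT. Less than 10% of the mock level was left for 50 members in *hvatr.g* and for 0 members in WT, while between 40% and 50% was left for 5 members in *hvatr.g* and for 85 in WT. On the scale fitted by edgeR the median log2 fold change of zeocin over mock was -2.47 in *hvatr.g* and -1.41 in WT, against -0.01 and 0.00 over the 14505 other rows at the same mock level. A log2 fold change of -1 or lower together with an edgeR adjusted p under 0.05 was found for all 197 members in *hvatr.g* and for 180 in WT. The count in WT was 96 without zeocin-treated WT replicate 1, 114 without its replicate 2 and 116 without replicate 2 of mock-treated WT. Of all 26039 rows tested, 2.15% did so in *hvatr.g* and 0.902% in WT. Every zeocin-treated library was below every mock-treated one in both genotypes for 4.04% of the tested rows. These values describe how the genes were chosen and are no result about them.

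**Figure D1:**
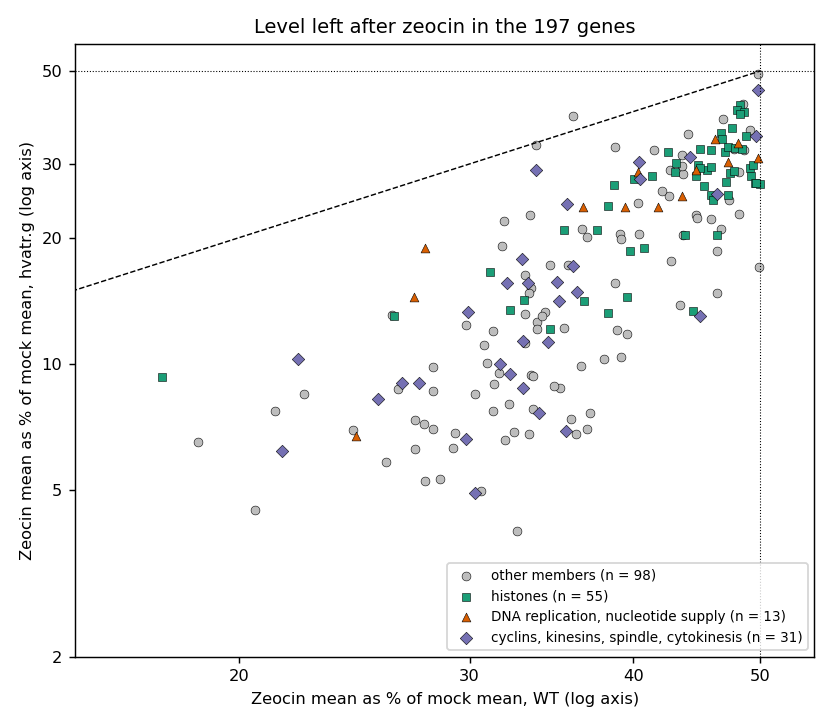
Level left after zeocin treatment for the 197 genes, given as the zeocin mean in percent of the mock mean, in *hvatr.g* (vertical axis) against WT (horizontal axis), both on log axes. Each point is a gene, the dashed line marks equal values and the dotted lines mark the bound of 50%. All but 1 of the points lie below the dashed line, and the histones (green squares) crowd near the upper right.

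The difference between genotypes was seen in each library and was not of the same size in all of them. As the median over the 197 members, zeocin-treated *hvatr.g* replicates 1, 2 and 3 held 18.5%, 23.2% and 12.4% of the *hvatr.g* mock mean. In zeocin-treated WT replicates 1, 2 and 3 the median was 37.1%, 31.1% and 44.2% of the WT mock mean. The highest *hvatr.g* library was therefore below the lowest WT library, with *hvatr.g* replicate 3 lowest and WT replicate 3 highest. Mock-treated libraries ran from 93.4% to 114% in *hvatr.g* and from 94.8% to 106% in WT. Members took 0.153% to 0.228% of all counts in zeocin-treated *hvatr.g*, 0.778% to 0.901% in mock-treated *hvatr.g*, 0.281% to 0.377% in zeocin-treated WT and 0.706% to 0.819% in mock-treated WT.

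**Figure D2:**
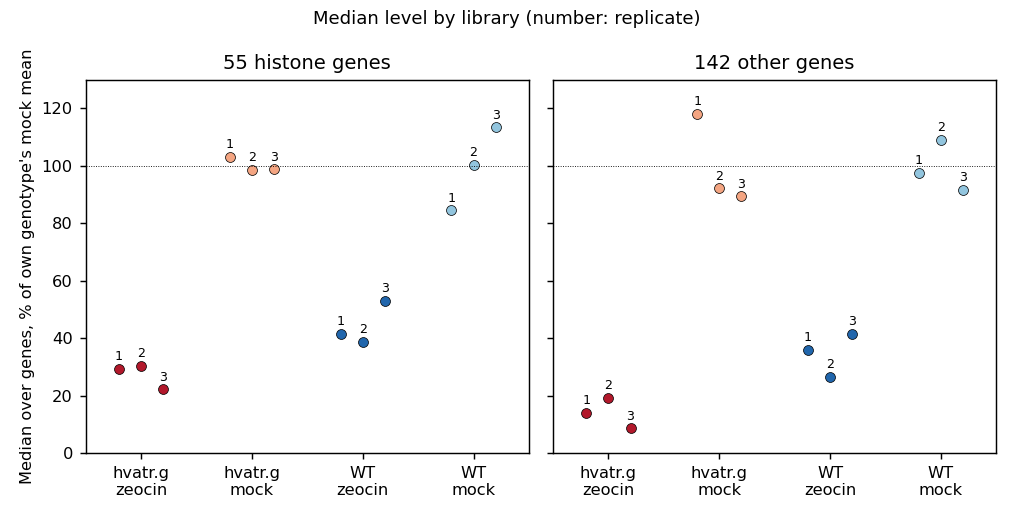
Median level of the 55 histone genes (left) and of the 142 other members (right) in each of the 12 libraries, in percent of the mock mean of the same genotype. Points are libraries numbered by replicate, and the dotted line marks 100%. All zeocin-treated *hvatr.g* libraries lie below all zeocin-treated WT libraries in both panels, and the distance is wider on the right.

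The comparison that the choice of genes left to test is the depth of the fall, the zeocin effect in *hvatr.g* minus the zeocin effect in WT (the interaction, in log2). It was fitted across all 26039 rows. It uses the same libraries as the choice, which asked for a fall in both genotypes and not for a difference between them. The median interaction over the members was -1.07, with a range of -3.08 to 0.09, and it was below 0 for 196 of 197 members. Over the other 14505 rows at the same mock level the median was -0.03, and 54.2% of all rows tested were below 0. By edgeR's quasi-likelihood test 0 of the 26039 rows (0.0%), and so 0 members, reached an adjusted p under 0.05. The smallest adjusted p of a member was 0.149. An unadjusted edgeR p under 0.05 was reached by 147 of the 197 members, against 4.3% of all rows. DESeq2 called 57 members at an adjusted p under 0.05, each with the larger fall in *hvatr.g*, against 0.271% of the 42453 rows it tested, and limma-voom called 0. In edgeR without the filter on low counts 14 members were called, against 33 of the 42453 rows tested in that setting. The calls for single genes thus depended on the tool and on this filter. Relative to the mock mean of its own genotype, each zeocin-treated *hvatr.g* library was below each zeocin-treated WT library for 169 of the 197 members. This held for 9.71% of the 14702 rows, and the opposite order held for 6.64%. Without zeocin-treated *hvatr.g* replicate 3 and mock-treated *hvatr.g* replicate 1, which were the lowest and the highest of their groups, the median interaction was -0.76 and 190 members stayed below 0.

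The interaction furthest below 0 was the -3.08 of a Tubby-like F-box gene (6HG0569480), which kept 3.98% of its mock level in *hvatr.g* and 32.6% in WT. It was singled out after its values were seen. At the other end only the KATAMARI1-like xyloglucan galactosyltransferase gene (3HG0221010) had an interaction above 0. Enzymes of this kind add galactose to xyloglucan, a cell wall polysaccharide. Its libraries held 2.66, 3.1 and 1.93 CPM in zeocin-treated *hvatr.g* and 8.10, 6.26 and 5.31 CPM in mock-treated *hvatr.g*. In WT they held 3.58, 4.57 and 3.92 CPM after zeocin and 12.8, 11.7 and 9.03 CPM under mock. The gene was lower in *hvatr.g* than in WT under both treatments, and no library of 1 genotype reached the other within a treatment. It kept 39.1% in *hvatr.g* and 36% in WT (interaction 0.09, SE 0.30, edgeR adjusted p = 1.00).

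DNA replication genes had 13 members, which kept a median of 25.1% in *hvatr.g* and 41.8% in WT. *POLD4.A* (1HG0076970) encodes the smallest subunit of DNA polymerase delta, the polymerase that copies the lagging strand, and had the lowest interaction p of all members. It was at 0.900, 1.31 and 0.706 CPM in zeocin-treated *hvatr.g* and at 15.6, 13.5 and 14.2 CPM in mock-treated *hvatr.g*. In WT it was at 2.37, 2.26 and 2.82 CPM after zeocin and at 8.77, 10.8 and 10.7 CPM under mock. The *hvatr.g* libraries were the lowest of all after zeocin and the highest of all under mock, without overlap between any of the 4 groups. It kept 6.73% in *hvatr.g* and 24.6% in WT, an interaction of -1.89 (SE 0.29, edgeR unadjusted p = 2.5e-05, adjusted p = 0.149). It was the only replication member that DESeq2 called (adjusted p = 1.4e-06). In edgeR without the filter on low counts its adjusted p was 0.019.

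The rest of the replication set differed less. *PCNA2.I* (6HG0627010) encodes the sliding clamp that holds polymerases on DNA. Its level was 5.83, 7.30 and 5.91 CPM in zeocin-treated *hvatr.g* and 31.9, 23.7 and 24.6 CPM in mock-treated *hvatr.g*. It was 7.79, 8.64 and 9.55 CPM in zeocin-treated WT and 22, 28.8 and 20.2 CPM in mock-treated WT. The zeocin-treated groups did not overlap, while the mock-treated groups did, and the interaction was -0.65 (SE 0.23, edgeR adjusted p = 0.949). Other members act before or at the start of copying. The *CDC6*-like gene (3HG0301080), whose product loads the replicative helicase at origins in yeast, kept 14.4% in *hvatr.g* and 27.2% in WT. *CDC45.B* (5HG0463350), a part of the active helicase, kept 28.6% and 40.3% in the same order, and *ETG1* (3HG0234670), which binds the helicase subunits, kept 23.7% and 41.8%. The DNA helicase genes 1HG0065100 and 5HG0443530 kept 30.4% and 30.9% in *hvatr.g*, against 47.2% and 49.8% in WT. *DPB2* (3HG0239160), a subunit of the leading strand polymerase epsilon, kept 33.7% in *hvatr.g* and 48.1% in WT. The dUTPase genes *DUT1.B* (4HG0333750) and *DUT1.C* (5HG0421570), whose products keep uracil out of new DNA, kept 18.9% and 23.7% in *hvatr.g*, against 27.7% and 39.4% in WT. *RAD5B* (2HG0103780), described as a helicase and named after a yeast factor of damage tolerance, is not among the 13 and was grouped with the members of other descriptions. It kept 13.1% in *hvatr.g* and 26.2% in WT. For *RAD5B* and the 8 replication genes from the *CDC6*-like gene to *DUT1.C* the interaction lay between -1.03 and -0.53, and no edgeR adjusted p was under 0.833.

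The 55 histone members were 21 genes of H3, 13 of H4, 13 of H2A and 8 of H2B, and included no linker histone. As a group they kept more of their mock level than the other members. Their median was 28.1% in *hvatr.g* and 45.5% in WT, against 14% in *hvatr.g* and 34.9% in WT for the 142 others. By kind, medians ran from 26.8% for H3 to 28.7% for H4 in *hvatr.g* and from 44.7% for H2A to 46.3% for H2B in WT, where the choice bounds them at 50%. The interaction was below 0 for all 55, with a median of -0.75, and 35 had an unadjusted edgeR p under 0.05 while 0 passed after adjustment and DESeq2 called 8. The 35 were 16 of 21 H3, 9 of 13 H4, 5 of 13 H2A and 5 of 8 H2B genes. Of the 131 histone rows described in the study's list, 124 had a mock mean of at least 5 CPM, and all 124 were lower after zeocin in both genotypes. The 69 of these that are not members had a ratio of at most 0.5 in *hvatr.g* alone. In the edgeR fit zeocin lowered 131 of 131 histone rows in *hvatr.g* and 58 of 131 in WT past both thresholds, and no row rose even at an unadjusted p under 0.05. The median interaction of the 131 was -0.63. As the study drew up that list from the same libraries, its direction is no independent evidence.

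Histone genes differed among themselves more than the medians show. The H3 gene 7HG0658120 was at 2.56, 2.70 and 1.88 CPM in zeocin-treated *hvatr.g*, against 19.8, 17.8 and 15.8 CPM in mock-treated *hvatr.g*. In WT it was at 6.00, 4.70 and 6.98 CPM after zeocin, against 11.1, 14.3 and 14.4 CPM under mock. It kept 13.4% in *hvatr.g* and 44.5% in WT, and its interaction of -1.75 (SE 0.28, edgeR adjusted p = 0.154, DESeq2 adjusted p = 1.9e-05) was the lowest among the histones. The H3 gene 3HG0299820 was at 102, 101.3 and 82.7 CPM in zeocin-treated *hvatr.g* and at 232, 228 and 250 CPM in mock-treated *hvatr.g*. Its libraries in WT were at 122, 114 and 150 CPM after zeocin and at 225, 272 and 307 CPM under mock. Here the zeocin-treated groups lay close together without overlap, the gene kept 40.3% in *hvatr.g* and 48.0% in WT, and the interaction was -0.27 (SE 0.21, edgeR adjusted p = 1.00). The H2A gene 6HG0558870 kept 13.0% in *hvatr.g* and 26.3% in WT with an interaction of -1.03 (SE 0.19, edgeR adjusted p = 0.283). The lowest level left in WT of any member was the 17.5% of the H2A gene 5HG0518610, which kept 9.32% in *hvatr.g* and was the only histone under 10% there.

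In *hvatr.g* the cyclins kept less than the replication genes and histones. The 8 members of the cell cycle group, 5 cyclins, 2 genes described as Polychome and UV-B-insensitive 4 and 1 described as the spindle checkpoint protein BUBR1, kept a median of 11.0% in *hvatr.g* and 34.0% in WT. All 8 had an unadjusted interaction p under 0.05 in edgeR, 0 had an adjusted one, and DESeq2 called 3. *CYCA1.A* (3HG0249410), an A-type cyclin, was at 1.53, 2.26 and 0.105 CPM in zeocin-treated *hvatr.g* and at 33.1, 25.5 and 20.6 CPM in mock-treated *hvatr.g*. In WT it was at 6.25, 3.94 and 9.30 CPM after zeocin and at 22.5, 24.2 and 17.6 CPM under mock. In *hvatr.g* replicate 3 it had 4 counts, the lowest number of any member in any library, which it shared with other members. The gene kept 4.93% in *hvatr.g* and 30.3% in WT, an interaction of -2.65 (SE 0.76, edgeR adjusted p = 0.587).

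The B-type cyclins bind the kinases that drive entry into mitosis. *CYCB2;3.B* (7HG0751620) was at 3.87, 6.32 and 1.49 CPM in zeocin-treated *hvatr.g* and at 63.8, 52.9 and 51.8 CPM in mock-treated *hvatr.g*. It was at 13.5, 8.43 and 22.8 CPM in zeocin-treated WT and at 40.6, 40.4 and 45 CPM in mock-treated WT. The *hvatr.g* libraries were again lowest after zeocin and highest under mock, with 6.93% left in *hvatr.g* and 35.6% in WT (interaction -2.39, SE 0.57, edgeR adjusted p = 0.40). *CYCB1;2.B* (1HG0069480) kept 13.0% in *hvatr.g* and 45% in WT. *CYCB1;3.A* (1HG0069490) kept 9.0% in *hvatr.g* and 27.5% in WT, and *CYCB1;3.B* (1HG0069550) kept 14.1% in *hvatr.g* and 35.1% in WT. These last 3 genes lie within 8 rows of each other on chromosome 1H, so reads of similar copies may be shared among them. *CDKB1;2* (5HG0463930), a plant-specific kinase active from S phase to mitosis, kept 17.6% in *hvatr.g* and 42.8% in WT. Polychome, known in Arabidopsis as an inhibitor of the anaphase-promoting complex, was represented by 6HG0590050, which kept 9.01% in *hvatr.g* and 26.7% in WT. Of the 19 rows of the cell cycle description list zeocin lowered 18 in *hvatr.g* and 9 in WT in edgeR, and raised 1 in each. Of all rows tested, zeocin lowered 2.15% and raised 1.29% in *hvatr.g*, and lowered 0.902% and raised 1.12% in WT. As the study chose the listed genes for a change with zeocin in these same libraries, the counts are no independent evidence.

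**Figure D3:**
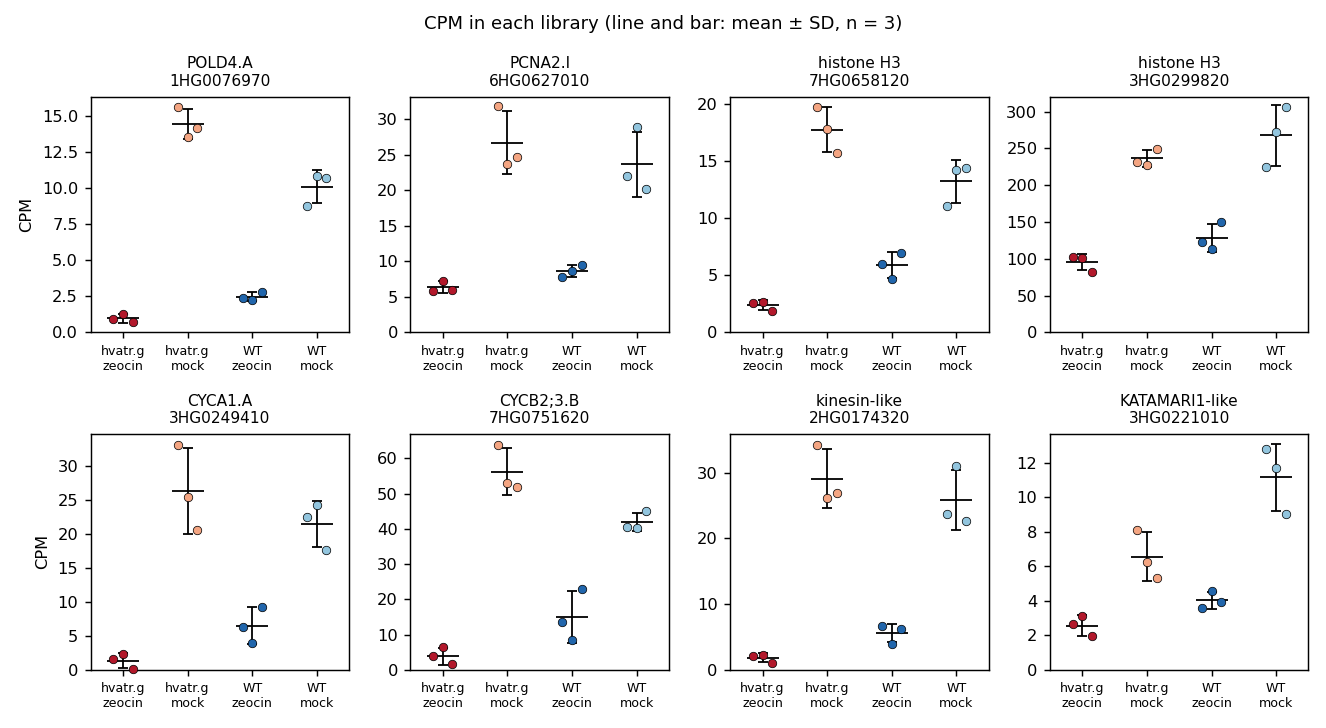
CPM of 8 members in each library, in the order zeocin-treated *hvatr.g*, mock-treated *hvatr.g*, zeocin-treated WT and mock-treated WT. Points are libraries, and the line with its bar is the mean ± SD of 3 libraries. In *POLD4.A*, the upper left panel, *hvatr.g* is below WT after zeocin and above it under mock, while in the KATAMARI1-like gene, the lower right panel, *hvatr.g* is below WT under both.

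Kinesins are motor proteins that walk along microtubules. The spindle and cytokinesis group had 23 members, 15 of them described as kinesins, and kept a median of 14.8% in *hvatr.g* and 33.7% in WT. The kinesin-like gene 2HG0174320 was at 2.09, 2.29 and 1.02 CPM in zeocin-treated *hvatr.g* and at 34.2, 26.1 and 26.9 CPM in mock-treated *hvatr.g*. In WT it was at 6.61, 3.97 and 6.17 CPM after zeocin and at 23.8, 31.1 and 22.7 CPM under mock. Mock-treated groups overlapped and zeocin-treated groups did not, and the gene kept 6.18% in *hvatr.g* and 21.6% in WT (interaction -1.83, SE 0.37, edgeR adjusted p = 0.326). The kinesin-like gene 2HG0134490 had the highest mock level of the group. It was at 20.3, 23.1 and 20.02 CPM in zeocin-treated *hvatr.g*, against 86.5, 61.3 and 56.4 CPM in mock-treated *hvatr.g*. Its libraries in WT were at 23.5, 20.9 and 25.5 CPM after zeocin, against 57.9, 59.0 and 41.2 CPM under mock. The zeocin-treated groups overlapped in this gene, and the interaction was -0.54 (SE 0.24, edgeR adjusted p = 1.00). A formin-like gene (2HG0173480), of a family that nucleates actin filaments, kept 6.63% in *hvatr.g* and 29.8% in WT. Genes described as TPX2 family proteins, which help to form spindle microtubules, kept 11.3% and 15.6% in *hvatr.g*, against 33% and 33.2% in WT. The syntaxin gene 4HG0340490, of a family that fuses membrane vesicles, kept 8.27% in *hvatr.g* and 25.6% in WT. The TPX2 and syntaxin genes were picked for their roles after the values were known. An unadjusted edgeR p under 0.05 was reached by 16 of the 23 members and an adjusted one by 0, while DESeq2 called 6. Of the 38 rows of this list, edgeR called 37 lower and 1 higher in *hvatr.g*, and 23 lower and 1 higher in WT. Of all rows tested, 2.15% were lower and 1.29% higher in *hvatr.g*, and 0.902% lower and 1.12% higher in WT. The study chose the listed genes for a change with zeocin in these same libraries, so these counts are no independent evidence.

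The set held 3 histone methyltransferase genes. All 3 had an unadjusted edgeR interaction p under 0.05, as had 147 of the 197 members and 4.3% of all rows tested. After adjustment 0 of the 3 passed in edgeR, and DESeq2 called 0. The gene described as specific for lysine 36 of H3 (7HG0640980) kept 7.73% in *hvatr.g* and 21.3% in WT, and 3HG0237870 kept 11.2% in *hvatr.g* and 33.1% in WT. The 2 repair genes were described as DCC1, a factor of sister chromatid cohesion, with 19.8% left in *hvatr.g* and 39.2% in WT, and as Fanconi anemia group I, with 38.3% left in *hvatr.g* and 46.8% in WT. Of the DNA damage response genes catalogued by the study, 257 rows were at the mock level that the choice asked for, and 8 of them were members (3.11%, against 1.34% of all 14702 rows). Of the 8 genes set aside, which are not counted, 6 met every criterion. Set-aside genes of the catalogue stay among the 257 rows, so the share under the criteria alone may be higher than 3.11%. In edgeR 325 rows of the catalogue were tested, of which zeocin lowered 18 and raised 16 in *hvatr.g*, and lowered 12 and raised 16 in WT. Of all rows tested, zeocin lowered 2.15% and raised 1.29% in *hvatr.g*, and lowered 0.902% and raised 1.12% in WT, past the same thresholds.

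**Figure D4:**
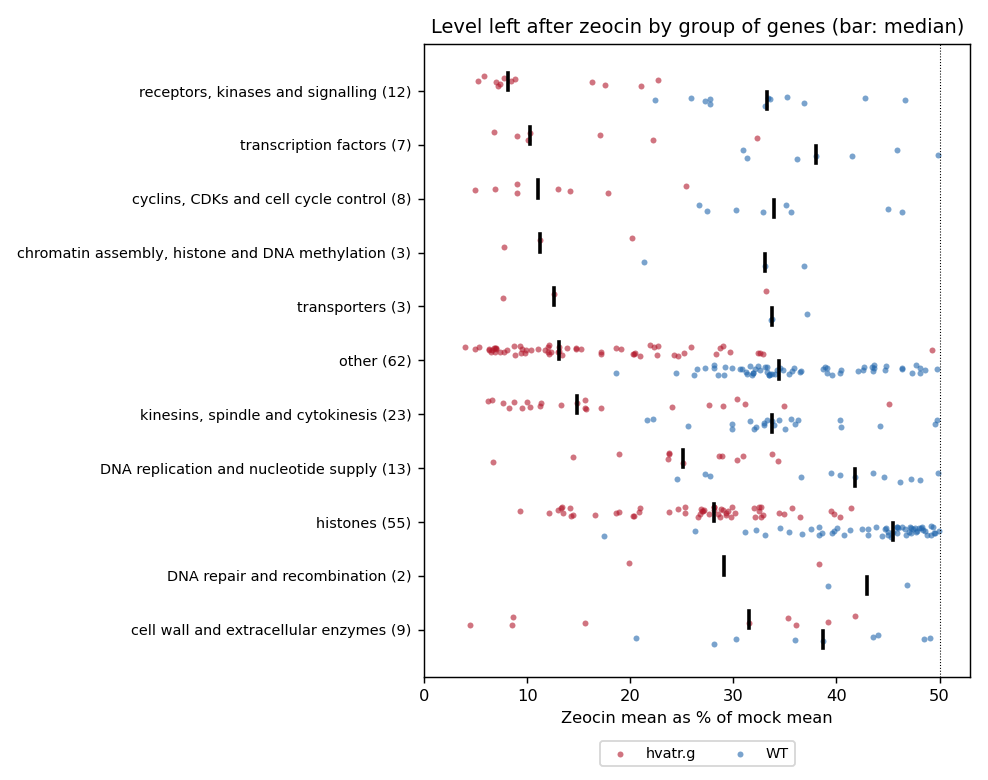
Level left after zeocin treatment by group of genes, as the zeocin mean in percent of the mock mean, with *hvatr.g* in red above WT in blue. Each point is a gene, the black bar is the median, and the dotted line marks the bound of 50%. Medians in *hvatr.g* run from 8.12% for receptors, kinases and signalling to 31.5% for cell wall and extracellular enzymes, while those in WT lie between 33.1% and 45.5%.

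By median, signalling genes and transcription factors kept least in *hvatr.g* among the groups. The signalling group was formed by description, and *CDKB1;2*, given above with the cyclins, is counted in it as a protein kinase. The group is therefore not separate from the cell cycle. The 12 genes described as receptors, kinases and other signalling proteins kept a median of 8.12% in *hvatr.g* and 33.2% in WT, and 11 of them had an unadjusted edgeR interaction p under 0.05, 0 an adjusted one, and 7 an adjusted p under 0.05 in DESeq2. A CTD small phosphatase-like gene (6HG0559940) kept 5.84% in *hvatr.g* and 25.9% in WT, and a protein kinase gene (7HG0680610) kept 16.3% in *hvatr.g* and 33.1% in WT. The 7 transcription factor genes kept a median of 10.3% in *hvatr.g* and 38% in WT. Among them, the B3 domain gene 2HG0123050 kept 8.98% in *hvatr.g* and 31.3% in WT, and a Scarecrow family gene (7HG0642830) kept 10.04% in *hvatr.g* and 30.9% in WT. The gene described only as a transcription factor (5HG0503970) kept 6.79% in *hvatr.g* and 36.2% in WT.

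Cell wall and extracellular enzymes had 9 members. Their median was 31.5% in *hvatr.g* and 38.7% in WT. The glucan 1,3-beta-glucosidase gene 5HG0498960 and the beta-glucosidase gene 5HG0510650, both of enzymes that split sugar bonds, kept 4.49% and 8.63% in *hvatr.g*, against 20.6% and 28.1% in WT. The Ole e 1 and extensin gene 3HG0286160, named after wall glycoproteins, kept 31.5% in *hvatr.g* and 43.6% in WT. The wording of the descriptions placed 3 genes with the transporters. Among them, a nucleobase-ascorbate transporter gene (3HG0290220) kept 7.65% in *hvatr.g* and 37.1% in WT. An early nodulin-like gene (1HG0082450), whose description does not name it a transporter, kept 12.6% in *hvatr.g* and 33.8% in WT. The 62 members of other descriptions, which include F-box, high mobility group, ARM repeat, WD repeat, myosin-like and unnamed transmembrane proteins, kept a median of 13.1% in *hvatr.g* and 34.4% in WT. Of these, 54 had an unadjusted edgeR interaction p under 0.05, 0 an adjusted one, and DESeq2 called 26. The 2 high mobility group genes, picked after the values were known, were 2HG0194580 and 7HG0708120, and kept 6.90% and 14.7% in *hvatr.g*, against 29.2% and 33.3% in WT.

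Set against WT under zeocin treatment, 93 of the 197 members were called lower in *hvatr.g* and 0 higher, at an edgeR adjusted p under 0.05 and a log2 difference of at least 1 in either direction. Of all rows tested, 9.02% were called, 5.56% lower and 3.46% higher. The median log2 difference over the members was -0.98, against -0.02 over the other rows at the same mock level. The interaction is this difference minus the difference under mock, so the 2 results are not separate. This comparison also shares the zeocin-treated libraries with the choice of genes. By adjusted p alone 140 members were lower, against 2649 of all 26039 rows tested. An unadjusted p under 0.05 was reached by 165 lower and 0 higher members, against 7827 of all rows in either direction. DESeq2 called 97 members lower, against 1656 of its 42453 rows, and limma-voom 89, against 1305 of 26039. Neither called a member higher. In CPM all 3 zeocin-treated *hvatr.g* libraries were below all 3 zeocin-treated WT libraries for 144 members, against 14.9% of all rows tested. The called members were 12 of the 55 histones (10 of 21 H3, 1 of 13 H4, 0 of 13 H2A and 1 of 8 H2B genes), 81 of the 142 others, and among these 6 of 8 cyclin and cell cycle genes, 11 of 23 spindle genes and 2 of 13 replication genes. The summed level of the differentiating root list was also lower in *hvatr.g* than in WT under both treatments. That list is no independent evidence, as given above, and its part was not tested.

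Under mock treatment the genotypes differed little in these genes. In *hvatr.g* against WT 1 member was called lower and 0 higher, against 4.58% lower and 3.87% higher of all rows tested (8.45% in all). All rows tested include genes below the mock level of 5 CPM that the choice asked for in both genotypes. That bound leaves out genes near silent in 1 genotype, so the low count is not independent of the choice. The log2 difference lay between -0.5 and 0.5 for 187 of 197 members. The share of other rows in that range was not computed, so the members are not set apart by it. DESeq2 and limma-voom also called 1 lower and 0 higher. Of all rows, DESeq2 called 1445 lower and 1143 higher (of 42453), and limma-voom 1195 lower and 959 higher (of 26039). An unadjusted edgeR p under 0.05 was reached by 7 higher and 4 lower members, against 7495 of all 26039 rows in either direction. The median was 0.13, against 0.01 over the other rows at the same mock level. All 3 mock-treated *hvatr.g* libraries were above all 3 mock-treated WT libraries for 50 members, while 21.7% of all rows tested showed this order. They were below for 5 members. The share of all rows with that opposite order was not computed, so the 2 counts are not set against each other. The called gene is described as a glutathione transport system permease (*gsiD*, 3HG0247530). It was at 2.33, 2.40 and 0.863 CPM in zeocin-treated *hvatr.g*, against 7.5, 5.46 and 3.88 CPM in mock-treated *hvatr.g*. In WT it was at 5.37, 6.66 and 3.6 CPM after zeocin, against 14.5, 21.5 and 10.4 CPM under mock. Each *hvatr.g* group was below the WT group of the same treatment, by a log2 difference of -1.57 under zeocin and -1.52 under mock (SE 0.37, edgeR adjusted p = 0.017 under mock), and the interaction was -0.05 (SE 0.52, edgeR adjusted p = 1.00). It was not called without mock-treated *hvatr.g* replicate 2 or 3 or without mock-treated WT replicate 2.

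**Figure D5:**
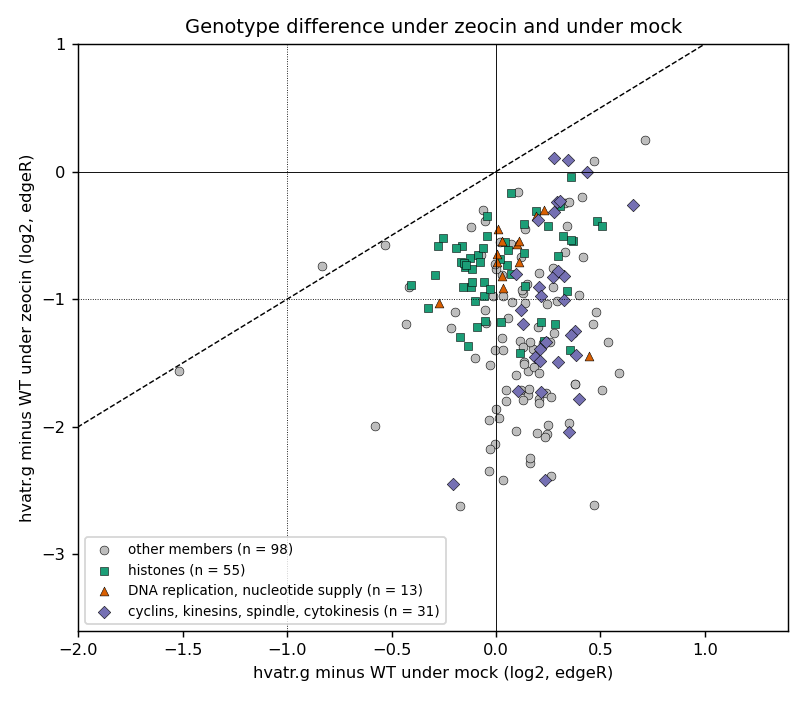
Log2 difference of *hvatr.g* minus WT under zeocin (vertical axis) against the same difference under mock (horizontal axis) for the 197 genes, from the edgeR fit. The dashed line marks equal differences and the dotted lines mark -1. The points form a column around 0 under mock and reach down to -2.62 under zeocin.

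Members were spread over all 7 chromosomes, with 23 on 6H to 33 on 1H and 1 on unplaced sequence. On the chromosomes they made up 1.11% (3H) to 1.69% (1H) of the rows at the same mock level. Chromosome 1H carried 18 of the 55 histone members and 7H carried 12. Members lay within 10 rows of another member in 19 places, most of them pairs of histone genes, and 4 H3 genes lay within 13 rows on 7H (7HG0654460 to 7HG0654580). How reads that fit several copies were counted is not given in the sources used here. The levels of single histone genes and of neighbouring cyclins are therefore uncertain. Across the 197 genes the mock level in log2 CPM and the interaction had a Pearson r of 0.362 and a Spearman coefficient of 0.357, and across the 142 that are not histones an r of 0.148 and a Spearman coefficient of 0.136, with the same libraries behind every point.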

How the data were processed

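Counts of reads per transcript model were deposited by the authors for 12 libraries, 1 column each and every column used, without normalization or filter. Paired reads had been trimmed by the authors (Trim Galore), aligned with HISAT2 2.1.0 to the Morex v3 genome, and assigned to the annotation by Subread 1.5.2. Strand, multi-mapping and pair settings are not given in the sources used here. The study tested these counts with DESeq2.

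The genes and the lists were chosen with earlier results of these data known. Rows were filtered with filterByExpr of edgeR 4.0.16 in R 4.3.3 (26039 left), scaled by TMM and fitted with glmQLFit over all 12 libraries, 1 coefficient for each group. glmQLFTest gave p for each contrast, with Benjamini-Hochberg adjustment over all rows. Calls took an adjusted p under 0.05 and, except for the interaction, a log2 change of at least 1. SE is the log2 value divided by the root of the F statistic. CPM in the text uses column totals. The edgeR p-values rest on 1 estimate of the spread for each row. It is taken within all 4 groups of 3 libraries and drawn towards that of other rows. The code was tested on simulated counts. Alternatives were other scalings, DESeq2 1.42.0, limma-voom (limma 3.58.1), no filter, a replicate block and leaving out each library.

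Named by rule were 42 members: those with the lowest interaction p in each direction, the member with most mock counts and the 2 with the lowest ratio in each group of at least 3, those with a symbol in the paper, those at the bound and those called under mock. The symbol *CYCB1;3.B* was given to 1HG0069550 because the paper prints 1 symbol for 2 identifiers. Of these, 1 is not reported here. Genes named beyond the rule are marked as picked after their values were seen, and so were the 2 repair genes. Identifiers had no match in the reference table used here, so positions are given as row order, and no promoter motifs or sequences were analysed.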

Additional observations from a re-analysis of the deposited data

How the results depend on the processing

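The median interaction stayed below 0 under every alternative run, between -1.25 and -0.86 when 1 library was left out and between -1.11 and -0.76 otherwise, the last without both zeocin-treated *hvatr.g* replicate 3 and mock-treated *hvatr.g* replicate 1, a combination chosen after seeing the data. The count of members with an unadjusted interaction p under 0.05 (147) was 125 to 155 with 1 library left out and 108 to 164 otherwise. For an adjusted interaction p under 0.05 (0 members) DESeq2 gave 57, no filter on low counts 14 and each other setting 0, with 0 to 0 when 1 library was left out. Members called between the genotypes under zeocin (93) were 64 to 110 with 1 library left out and 59 without the 2 libraries together, and other settings stayed within 1.5 times. Under mock (1 member) the count was 0 to 2 with 1 library left out and 2 without the 2 libraries together. Members past both zeocin thresholds were 194 to 197 in *hvatr.g* (197) with 1 library left out and 96 to 188 in WT (180), with 96 when zeocin-treated WT replicate 1 was left out, 114 when its replicate 2 was and 116 when replicate 2 of mock-treated WT was. The choice of members depended on its own bounds, with 112 at a ratio of 0.4 and 328 at 0.6, 157 and 246 at a mock level of at least 10 and 1 CPM, 205 with TMM-scaled CPM and 197 with rows of a gene summed. Leaving out 1 library gave 181 to 248, of which 169 to 197 were among the 197. Of the 42 named genes 39 kept the direction of the interaction throughout. The KATAMARI1-like gene (0.09) reversed to -0.036 and -0.055 without mock-treated *hvatr.g* replicate 3 or zeocin-treated *hvatr.g* replicate 2. The *gsiD* gene (-0.05) ran from -0.34 without mock-treated WT replicate 2 to 0.28 and reversed without mock-treated *hvatr.g* replicate 1 (0.22), zeocin-treated *hvatr.g* replicate 3 (0.28), mock-treated WT replicate 1 (0.0036) or 3 (0.15) and zeocin-treated WT replicate 2 (0.16), and without the 2 libraries together it was at 0.57 and *CDC45.B* at 0.024. The causes were not tested. Replicate numbers were not taken to pair the libraries across the 4 groups, because not every same-numbered pair deviated together. Over 18 same-numbered pairs the correlation of deviations from the group mean ran from -0.06 to 0.54 (median 0.17), against a median of -0.08 over 36 others. Within WT, however, the 3 same-numbered pairs of a zeocin-treated and a mock-treated library were at 0.31, 0.38 and 0.54. With the number as a replicate block, 0 members had an adjusted interaction p under 0.05, 157 an unadjusted one, and 96 were called under zeocin, 1 under mock, 197 for zeocin in *hvatr.g* and 177 in WT, with a median interaction of -1.09. Depth limits the lowest zeocin values, where a member could rest on 4 counts.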
